A study of Mus musculus with 2 samples.

Results

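A set of 10 genes that cells switch on within minutes of a stimulus or a stress, and that are widely used as a sign of tissue dissociation, were followed through single cells of mouse lung adenocarcinoma. They are the AP-1 genes Fos, Fosb, Jun, Junb and Atf3, the other immediate early genes Egr1, Ier2 and Dusp1, and the heat shock genes Hspa1a and Hspa1b. They were chosen by name, and all 10 of them were found among the 17790 genes of the deposited table. Their level was taken in each cell class and library, with the AP-1 genes and the heat shock genes kept apart. The samples are 2 libraries made from dissected lung tumours of C57BL/6 mice, 1 of the cells that magnetic CD45 beads left behind and 1 of the cells they held, where CD45 is the surface protein of leukocytes. The CD45-negative library holds 3957 cells with 40873786 UMI, the molecular tags that count captured transcripts, and the CD45-positive library holds 11432 cells with 47477407. LucOS, a name within the deposited cell names, is not explained in the sources used here, nor are the number of mice, the tumour model, and the time and temperature of dissociation. With 1 library in each group no difference has a replicate check and no test between groups is possible. Values are UMI of a gene per 1000000 UMI of the summed cells (CPM) with a 95% exact Poisson interval, which covers counting error only, and a ratio of at least 2-fold is called higher or lower.

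AP-1 is a dimer of bZIP proteins. Jun proteins pair with each other or with Fos proteins, while Atf3, a related factor induced by stress, pairs with Jun and often acts as a repressor. Growth factors, calcium, cytokines and mechanical or enzymatic handling reach these genes through MAP kinases and through the serum response factor SRF, and their transcripts are short-lived. Egr1 is a zinc finger factor of the same first wave, Ier2 is a small nuclear protein of that wave, and Dusp1 is a phosphatase that switches off the MAP kinases. Hspa1a and Hspa1b encode the inducible Hsp70 chaperone and are driven by heat shock factor Hsf1 when proteins misfold. In lung, enzymatic dissociation is known to induce both programs, and so are tissue injury and inflammation.

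The stretches just before the start of 4 of the genes are shown as part of the regions through which these genes are known to be switched on. They come from RefSeq on build GRCm38.p6, read 5′ to 3′ on the strand of the gene, and end at the base before the annotated start. Fos lies at chr12:85473790-85473889 (plus strand), Jun at chr4:95052223-95052322 (minus strand), Hspa1a at chr17:34972157-34972356 (minus strand) and Hspa1b at chr17:34959239-34959438 (minus strand). Capitals mark the motif words TGACG and TATAAA in Fos, CCAAT in Jun, and GAANNTTC in Hspa1a and Hspa1b.
Fos: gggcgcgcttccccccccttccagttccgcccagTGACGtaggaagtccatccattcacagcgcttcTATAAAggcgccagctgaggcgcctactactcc
Jun: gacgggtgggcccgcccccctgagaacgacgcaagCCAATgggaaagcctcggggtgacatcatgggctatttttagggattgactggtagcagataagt
Hspa1a: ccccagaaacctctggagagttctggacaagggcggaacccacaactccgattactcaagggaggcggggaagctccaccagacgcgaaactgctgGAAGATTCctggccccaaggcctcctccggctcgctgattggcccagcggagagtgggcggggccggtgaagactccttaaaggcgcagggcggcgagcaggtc
Hspa1b: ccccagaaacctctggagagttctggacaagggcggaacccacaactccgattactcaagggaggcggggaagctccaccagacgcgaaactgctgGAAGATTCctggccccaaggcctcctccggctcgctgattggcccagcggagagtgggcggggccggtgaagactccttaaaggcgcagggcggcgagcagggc

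Motif words were searched on both strands of the 250 bases before each start, in 32851 promoters. TGACG, the core of the cAMP response element, stood in 17.8% of all promoters and TATAAA in 12.4%. CCAAT stood in 33.8%, and the heat shock element pair (GAANNTTC or TTCNNGAA) in 12.8%. Fos, Fosb, Junb, Atf3 and Dusp1 held TGACG, Jun, Junb, Hspa1a and Hspa1b held CCAAT, and Fos alone of the 8 members with an entry held TATAAA. None of the 8 held the AP-1 site TGANTCA, which stood in 6.75% of all promoters. Words can overlap, since TGACG lies within the full element TGACGTCA, which stood in 1.55% of promoters and once in Dusp1. Hspa1a and Hspa1b each held 1 heat shock element pair, ending 96 bases before the start, and Jun held 1 ending 120 bases before its start. Of the 250 bases before the start, 247 (98.8%) were identical in Hspa1a and Hspa1b, which lie 9951 bases apart on chromosome 17. Reads of 98 bases would match both transcripts over 47.5% of the Hspa1a transcript, but over 0% of its last 500 bases, where a 3' library is read. Counts of the pair are given apart and summed, since the sources used here do not say how reads matching both genes were counted. Egr1 and Ier2 are named only.

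The class labels deposited with the cells were checked against marker genes. The class deposited as AT1, the thin cells of the alveolar wall, was not set apart by AT1 markers: in the CD45-negative library 9 such genes summed to 1017 CPM there, below the AT2 class (2787) and the Endothelial class (1871), with Hopx at 7.09 CPM. Ager, another of these markers, was at 302 CPM there, above the Endothelial class (102) and below the AT2 class (1614). The class was led by Cldn4 (658 CPM) and Tnfrsf23 in that library, with Krt8 at 1856 CPM, and is called the Cldn4-led class here. The name is used for both libraries, though in the CD45-positive library S100a14 and Mmp3 came before Cldn4 (427 CPM). The Ciliated class of the CD45-negative library held Scgb1a1, a club cell gene, at 225427 CPM beside ciliated genes. The Fibroblast class of the same library carried mesothelial markers at 8739 CPM and fibroblast markers at 4498, with Pdgfra at 0.584. The Erythrocyte class had a median of 326 genes per cell, and 5 erythroid markers held 843338 CPM of its CD45-negative cells and 639943 CPM of its CD45-positive cells, so the CPM of every other gene is lowered there by the total. Median depth per cell was 7710 UMI in the CD45-negative library and 3376 in the other, and 57 barcodes occurred in both. Leukocyte transcripts reached most non-immune barcodes of the CD45-positive library: more than 1 UMI over 8 leukocyte markers was found in 83.2% of its AT2 and 79.7% of its Endothelial barcodes, against 25.7% and 10.0% in the CD45-negative library.

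Fos and Fosb were highest in the Ciliated and Immune classes. In the CD45-negative library Fos was at 803 CPM (757 to 852) in the Ciliated class, 625 in the Immune class, 391 in the Cldn4-led class, 188 in the Fibroblast class, 176 in the AT2 class, 173 in the Endothelial class and 28.9 in the Erythrocyte class. The CD45-positive library had the same top 3, at 1187 CPM (1115 to 1261) in the Ciliated class, 467 in the Immune class and 362 in the Cldn4-led class, with 299, 231, 266.5 and 108 CPM in the Fibroblast, AT2, Endothelial and Erythrocyte classes. Among the CD45-negative cells the Fibroblast level overlapped with the AT2 level, and the AT2 with the Endothelial level, while among CD45-positive cells the Cldn4-led and Fibroblast levels overlapped. A Fos UMI was found in 86.1% of Immune, 67.6% of Ciliated, 32.9% of AT2 and 12.1% of Erythrocyte cells of the CD45-negative library. Fosb was lower throughout, at 158 CPM (135 to 185) in the Immune and 91.9 in the Ciliated class of the CD45-negative library. The Cldn4-led class had 86.6 CPM there, with an interval overlapping that of the Ciliated class. The CD45-positive library gave 75.5 CPM in the Immune and 240 CPM (209 to 275) in the Ciliated class.

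Jun had another pattern, with its highest level in the Endothelial class of both libraries. Jun was at 1211 CPM (1190 to 1233) in the Endothelial class of the CD45-negative library, against 590.5 in the Ciliated, 295 in the Cldn4-led, 235 in the Immune, 215 in the AT2, 198 in the Fibroblast and 149 in the Erythrocyte class. In the CD45-positive library the Endothelial class had 743 CPM (725 to 761) and the Ciliated class 576, with the other classes between 156 and 225. A Jun UMI was present in 98.8% of Endothelial cells of the CD45-negative library, at a median depth of 6808 UMI, and in 27.0% of Erythrocyte cells at 6570.5 UMI. After every cell was thinned to 1000 UMI the shares were 67.8% and 10.3%. Junb, a Jun relative with weaker activity of its own, was highest in the Cldn4-led class at 608 CPM (587 to 629) among CD45-negative cells and among Immune cells of the CD45-positive library at 780 CPM (769.7 to 791). It was lowest at 42.5 CPM in the Erythrocyte class of the former and at 321 CPM in the AT2 class of the latter. The Erythrocyte class of the CD45-positive library held Junb at 398 CPM, where 64.8% of barcodes had more than 1 leukocyte UMI.

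Atf3 was highest in the Cldn4-led class of the CD45-negative library, at 312 CPM (297 to 327), and present in 66.3% of its cells. The Ciliated class followed at 172 CPM, and the Fibroblast, Immune, AT2, Endothelial and Erythrocyte classes had 72.1, 69.0, 62.6, 53.1 and 14.4 CPM. In the CD45-positive library the Ciliated class led at 322 CPM (285 to 362), followed by the Cldn4-led class at 213, and the other classes lay between 20.9 and 96.4 CPM. In both libraries the Cldn4-led and Ciliated classes held the upper positions without overlap with the other classes.

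**Figure D1:**
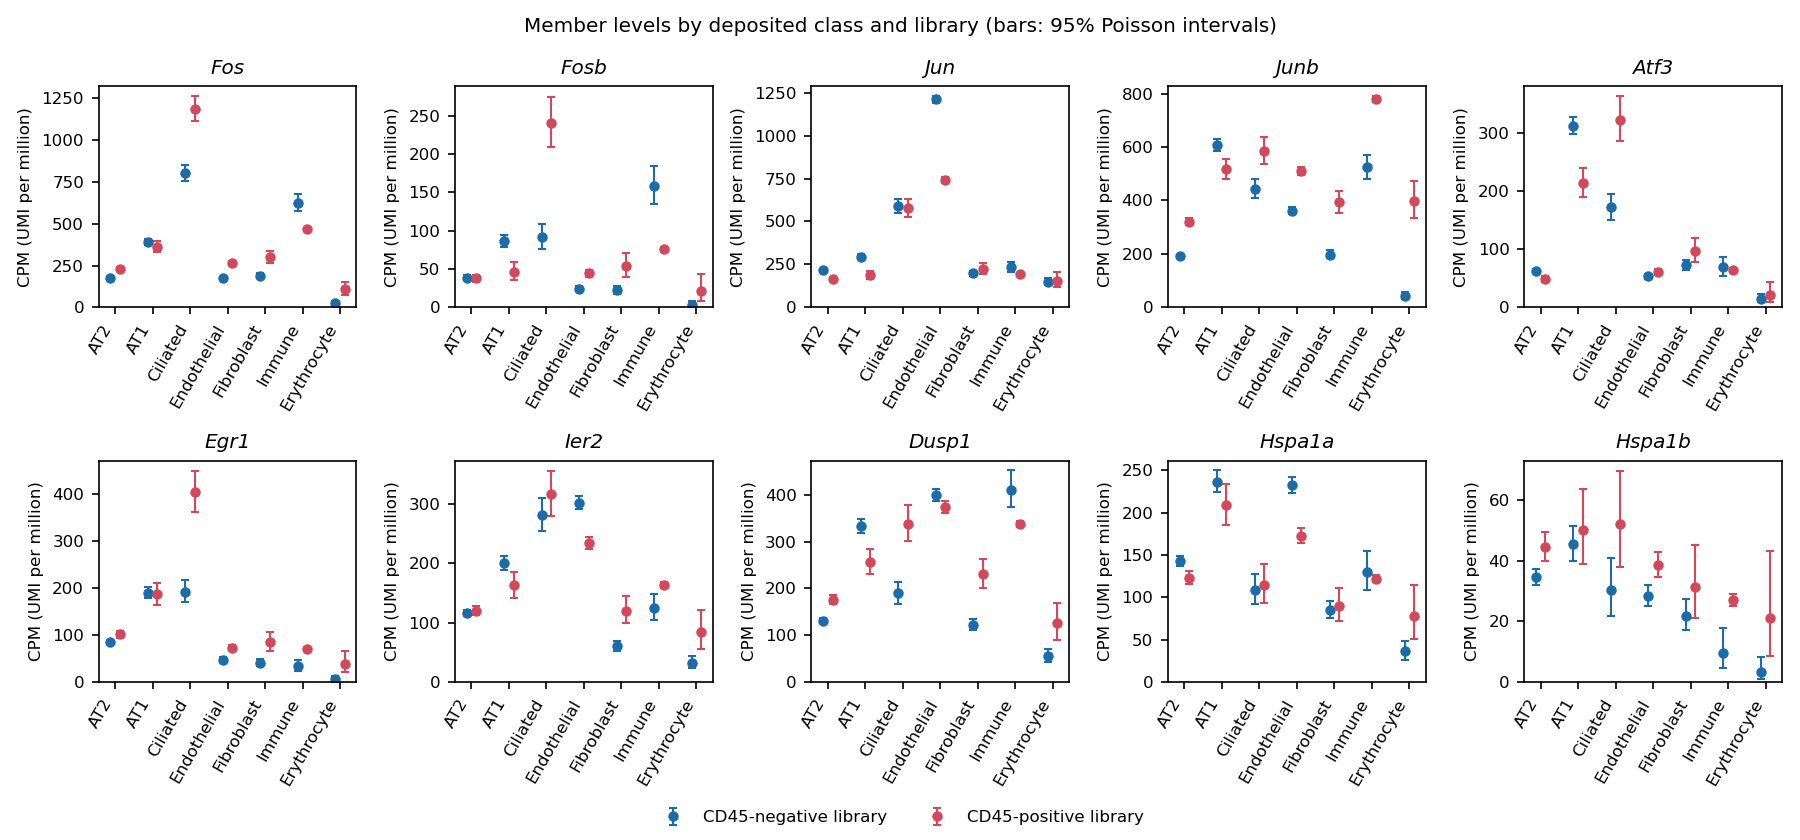
Each panel plots 1 gene, with the deposited class on the horizontal axis (AT1 is the Cldn4-led class), its level in CPM on the vertical axis, blue points for the CD45-negative and red points for the CD45-positive library, and bars for 95% Poisson intervals. Jun peaks in the Endothelial class at 1211 and 743 CPM, Fos in the Ciliated class at 803 and 1187 CPM, and all 10 genes are lowest in the Erythrocyte class of the CD45-negative library.

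Of the other immediate early genes, Egr1 shared its highest classes with Atf3. It stood at 192 CPM in the Ciliated and 189 CPM in the Cldn4-led class of the CD45-negative library, whose intervals overlap, and at 84.4 CPM in the AT2 class and 47.6 CPM in the Endothelial class. It reached 403 CPM (362 to 447) in the Ciliated and 186 CPM in the Cldn4-led class of the CD45-positive library, against 101 CPM in the AT2 and 73.2 in the Endothelial class. Ier2 and Dusp1 were high in the Endothelial class, which led for Ier2 among CD45-negative cells and for Dusp1 among CD45-positive cells. Ier2 was at 302 CPM in the Endothelial and 281 in the Ciliated class of the CD45-negative library, with overlapping intervals, against 117 in the AT2 class. Ier2 in the CD45-positive library was at 316 CPM in the Ciliated, 234 in the Endothelial and 120 in the AT2 class. Dusp1 was at 411 CPM in the Immune and 399 in the Endothelial class of the CD45-negative library, at 333 in the Cldn4-led and at 131 in the AT2 class. Dusp1 in the CD45-positive library was at 374, 338 and 337.5 CPM in the Endothelial, Ciliated and Immune classes, which did not stand apart from each neighbour, and at 175 in the AT2 class.

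The heat shock pair was ordered otherwise than the AP-1 genes. Hspa1a was highest in the Cldn4-led class at 237 CPM (224 to 250) and the Endothelial class at 233 (223 to 242) of the CD45-negative library, followed by 143 in the AT2, 130 in the Immune, 108 in the Ciliated, 85.2 in the Fibroblast and 36.1 in the Erythrocyte class. The CD45-positive library had the same order of classes, from 209 CPM (185 to 234) in the Cldn4-led, 173 in the Endothelial and 123 in the AT2 class to 77.8 in the Erythrocyte class. The Ciliated class, first for the summed AP-1 genes in both libraries, had only the Fibroblast and Erythrocyte classes below it for Hspa1a in both. Its Hspa1a interval overlapped those of the Immune and Fibroblast classes in both libraries, so their order is not resolved. Scgb1a1 held 225427 CPM of its CD45-negative cells, which lowers the CPM of its other genes by the total. Hspa1b was lower and flatter, from 45.3 CPM in the Cldn4-led class to 3.21 in the Erythrocyte class of the CD45-negative library, and from 51.9 in the Ciliated class to 20.9 in the Erythrocyte class of the CD45-positive library, with most neighbouring intervals overlapping. Summed, the pair reached 282 CPM in the Cldn4-led and 261 in the Endothelial class of the CD45-negative library, with overlapping intervals, and 177 in the AT2 class.

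Each class was set against the other classes of its library, over all genes with at least 50 UMI. In the CD45-negative library the Cldn4-led class had 4 of 10 members at least 2-fold higher, where 7.76% of all genes were: Atf3 (4.90-fold, 4.60 to 5.22), Egr1 (2.70-fold), Junb (2.40-fold) and Fosb (2.31-fold). Of a list of 12 reference genes, which most cells express, 3 were also at least 2-fold higher in this class (Rplp0 2.52-fold, Rpl13a 2.41-fold and Eef1a1 2.13-fold), with a median log2 ratio of 0.80, beside 0.78 for the 10 members and -0.23 for all genes. In the CD45-positive library 2 of them were higher there, Atf3 (3.24-fold) and Egr1 (2.27-fold), against 10.2% of genes, and there most of the other cells are leukocytes. The Ciliated class had 3 members higher in the CD45-negative library, where 12.6% of genes were (Fos 3.78-fold, Egr1 2.34-fold and Fosb 2.18-fold), and 4 in the CD45-positive library, where 15.9% were (Egr1 5.08-fold, Atf3 4.93-fold, Fosb 3.89-fold and Fos 3.11-fold). The Endothelial class of the CD45-negative library had members past 2-fold on both sides, at shares not far from those of all genes. Jun (5.01-fold), Ier2 (2.33-fold) and Dusp1 (2.30-fold) were higher, against 24.9% of genes, and Fosb, Atf3 and Egr1 were lower, with ratios of 0.484, 0.483 and 0.487, against 18.3% of genes. For Jun the CD45-positive library gave 3.79-fold in the Endothelial class, its 1 member past 2-fold, against 17.8% of genes higher. Fosb, Atf3 and Egr1 were not 2-fold lower there.

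Few members were higher in the remaining classes. Except in the Fibroblast class of the CD45-negative library, the shares of members lower were near or below those of all genes. The AT2 class of the CD45-negative library had 0 members higher, against 6.81% of genes, and 3 lower (Jun 0.311, Dusp1 0.423 and Junb 0.489), against 27.8%. Its counterpart in the CD45-positive library had Junb lower (0.462), against 21.9%. The Fibroblast class had 5 lower in the CD45-negative library (Ier2 0.336, Jun 0.395, Egr1 0.462, Hspa1a 0.488 and Fosb 0.490), against 19.8% of genes, and 0 of 10 past 2-fold in the CD45-positive library, against 33.9% in either direction. The Immune class of the CD45-negative library had Fosb (3.87-fold) and Fos (2.81-fold) higher, against 10.3%, and Jun (0.488), Egr1 (0.380) and Hspa1b (0.301) lower, against 35.7%. That of the CD45-positive library, which holds most of its cells, had Jun lower (0.428), against 26.2%. In the Erythrocyte class all 10 were lower in the CD45-negative library, as were 96.3% of genes, and 6 in the CD45-positive library, as were 76.2%.

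The make-up of AP-1 differed between classes. UMI of a 3' library count transcripts and are not divided by gene length, so shares of the summed AP-1 UMI can be read across the 5 genes. Jun made up 66.4% of these UMI in the Endothelial class of the CD45-negative library and 45.7% in that of the CD45-positive library. The Erythrocyte class had Jun at 62.6% of 297 AP-1 UMI in the former and at 22.1% of 235 in the latter, where Junb took 56.6%. Fos led in the Ciliated class, with 38.2% and 40.8%, and in the small Immune class of the CD45-negative library, with 38.8% against 32.5% for Junb. Junb led in the Cldn4-led class with 35.9% and 39.0%, where Atf3 took 18.4% and 16.1%, its highest shares. Immune cells of the CD45-positive library had Junb at 49.4%, Fos at 29.6% and Jun at 12.2%. Among immune clusters of that library, the 6 named for T, regulatory T, B and NK cells had Junb shares of 64.3% to 74.7%. The clusters named for monocytes, alveolar macrophages and C1q macrophages had Junb at 36.8% to 38.5% and Fos at 36.3% to 41.9%, and the neutrophil-like cluster had Junb at 52.4% and Fos at 32.7%. The plasma cell-like cluster, of 817 cells, had Junb at 31.6% and Fos at 41.3%. Junb was at 55.5% in the mature dendritic cell-like and 54.4% in the mast cell or basophil-like cluster.

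**Figure D2:**
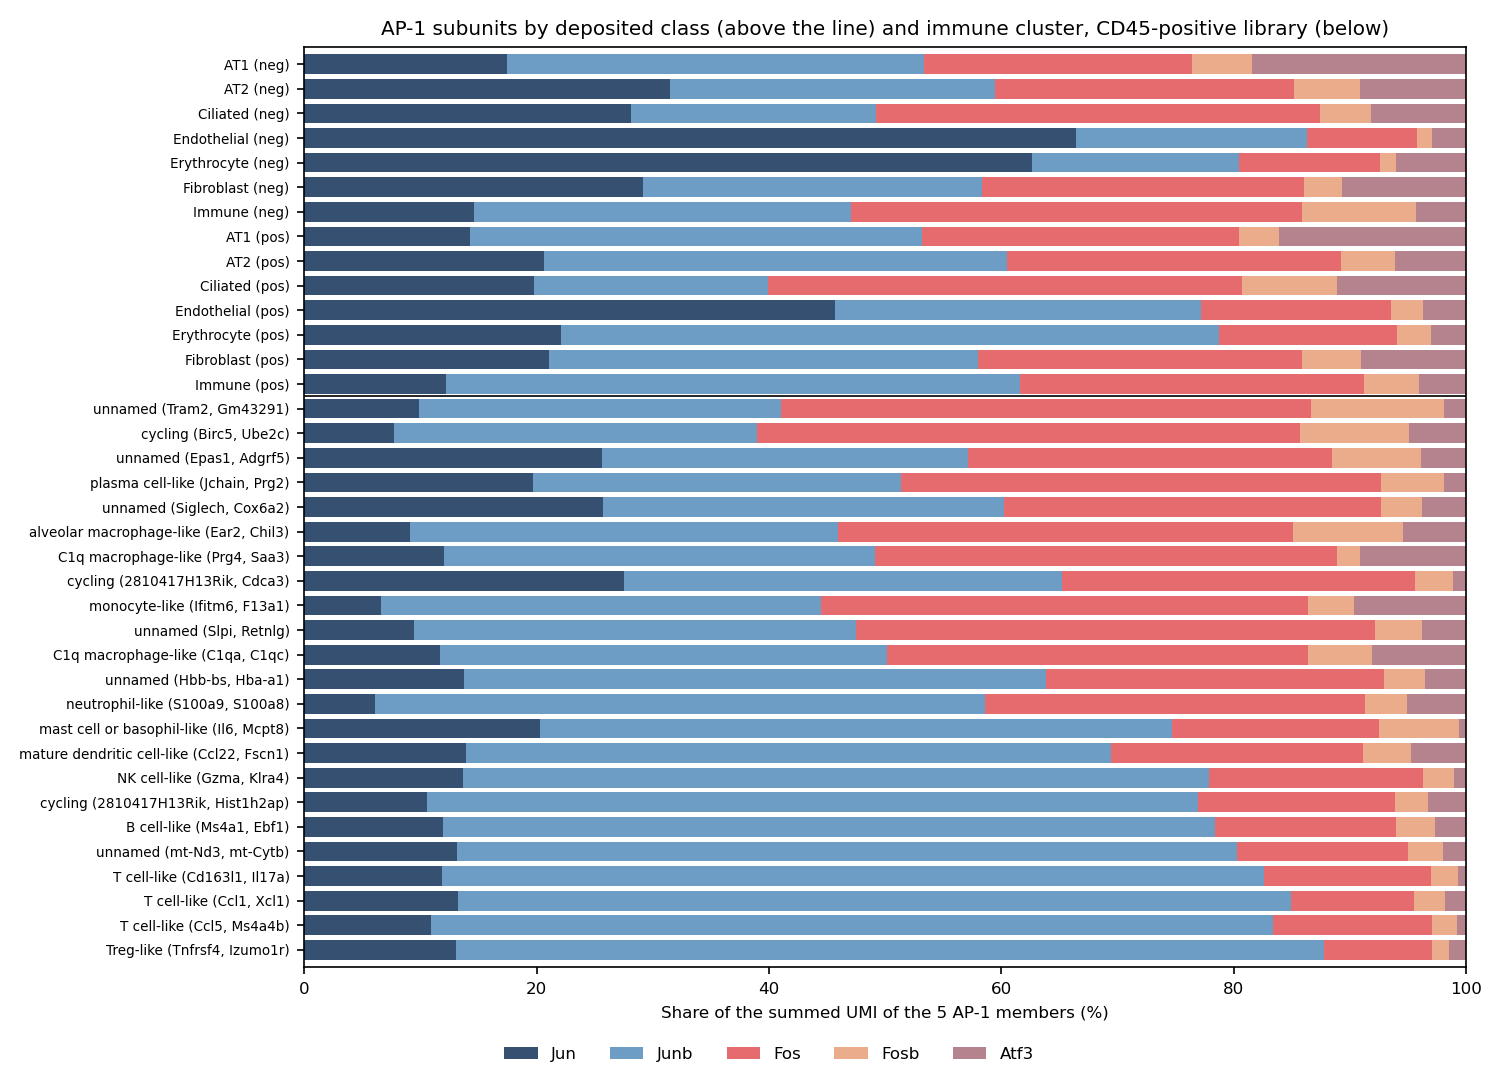
Bars give the share of the summed UMI of the 5 AP-1 genes taken by each gene, in percent, for the 7 deposited classes of the CD45-negative (neg) and CD45-positive (pos) libraries above the line and for immune clusters of the CD45-positive library below it, ordered by the Junb share. Jun takes 66.4% in the Endothelial class of the CD45-negative library, and Junb 74.7% in the Treg-like cluster.

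The Endothelial and AT2 classes, the 2 largest of the CD45-negative library, were compared directly. The summed AP-1 genes were at 1824 CPM in the Endothelial and 684 in the AT2 class, a ratio of 2.67. Jun (1211 against 215 CPM) made up most of this difference. The other AP-1 genes had ratios of 1.90 (Junb), 0.980 (Fos), 0.847 (Atf3) and 0.627 (Fosb). Jun was 5.62-fold higher, and Dusp1 (3.05-fold) and Ier2 (2.58-fold) were the other members past 2-fold, which makes 3 of 10 higher, where 33.6% of all genes were. In the CD45-positive library Jun (4.48-fold) and Dusp1 (2.13-fold) were higher, against 23% of genes. These counts of members are near or below the background. Sftpc, a surfactant gene, alone held 121713 CPM of the AT2 class. With the genes over 0.5% of UMI left out of the totals the AP-1 ratio was 2.12. The heat shock pair had a ratio of 1.47, and 1.17 on those totals. Of 45 other immediate early genes tested, 18 were higher and 5 lower, with a median log2 ratio of 0.65 against 0.61 over all genes, of which 13.1% were lower. Klf4 (18.8-fold) and Klf2 (14.2-fold), factors that blood flow induces in vessels, and the kinase Sgk1 (12.4-fold) had the highest ratios, and the feedback inhibitor Errfi1 (ratio 0.209) was the lowest. Of 16 other bZIP genes, 10 were higher, led by Creb5 (17.5-fold), with a median of 1.20. Of 35 other chaperones, 2 were higher, Hspb1 (3.81-fold) and Bag3 (2.45-fold), and 2 were lower, Fkbp4 (0.475) and Hspb8 (0.474). Of 20 upstream kinases and SRF factors 9 were higher and 0 lower, with a median of 0.91.

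Within the Endothelial class, 364 cells of the CD45-negative library carried at least 3 pericyte or 4 fibroblast markers. This split was chosen after the data were seen. Jun was at 1073 CPM (1038 to 1109) in those cells and at 1282 CPM (1254 to 1309.5) in the other 885, and the summed AP-1 genes were at 1687 and 1893 CPM. The Ciliated class was split likewise. Its 83 cells with at least 3 ciliated markers had Fos at 976 CPM (919 to 1036) and Egr1 at 232, and the 25 with fewer had Fos at 102 CPM (67.6 to 147) and Egr1 at 29.1. Fos levels in the CD45-positive library were 1295 CPM in 102 cells and 427 CPM in 14.

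The Cldn4-led class was also read across the rest of the pathway. Against the other classes of the CD45-negative library, 16 of 48 other immediate early genes were higher and 6 lower, with a median log2 ratio of 0.44, while over all genes the median was -0.23, with 7.76% higher and 26.4% lower. The highest ratios were those of Myc (7.92-fold), a growth factor responsive oncogene, the neutrophil attractant Cxcl1 (5.34-fold) and the EGF receptor ligand Hbegf (5.25-fold). Fosl1, the Fos relative that accumulates later than Fos, was 28.7-fold higher at 43.7 CPM against 1.52. Of 9 other dual specificity phosphatases 4 were higher, with Dusp10 (6.84-fold) first and Dusp5 (4.71-fold) second, while Dusp14 (ratio 0.370) and Dusp8 (0.387) were lower. Klf4 (ratio 0.151) and Klf2 (0.257) were among the lower immediate early genes. Of 35 other chaperones 4 were higher and 4 lower, and the 3 highest were mitochondrial: Hspa9 (2.77-fold), Hspd1 (2.15-fold) and Hspe1 (2.12-fold). The median depth of these cells, 14541 UMI, was the highest of any class, and its part in the ratios was not tested. Among the CD45-positive cells 7 of 48 immediate early genes were higher and 15 lower, with a median of -0.48 against -0.09 over all genes, of which 10.2% were higher and 26.7% lower.

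The libraries were then compared within each class, which asks whether the same deposited class carried the same level in the 2 fractions. Over all cells only Junb passed 2-fold, with a CD45-negative over CD45-positive ratio of 0.472, where 10.3% of genes were lower. In the AT2 class 0 of 10 members passed 2-fold, where 6.95% of genes did in either direction, and in the Endothelial class 0 of 10, where 9.27% did. In the AT2 class Jun had a ratio of 1.30 (1.22 to 1.39), Atf3 1.28, Hspa1a 1.16 and Fosb 1.02, and Fos had 0.763, Dusp1 0.745 and Junb 0.596 (0.565 to 0.628). In the Endothelial class Jun had 1.63, Hspa1a 1.35, Ier2 1.29 and Dusp1 1.07, and Junb had 0.709, Egr1 0.650, Fos 0.648 and Fosb 0.546. In the Cldn4-led class, too, 0 of 10 passed, where 4.88% of genes did.

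In the Endothelial class the ratios of Fos, Junb and Egr1 changed when barcodes with leukocyte transcripts were left out. Over barcodes with at most 1 leukocyte marker UMI, 1124 and 442 Endothelial cells were left. There the Endothelial ratio of Fos was 1.05, of Junb 1.25, of Atf3 1.11 and of Egr1 1.34, each past 1 from below. That of Fosb was 0.874. Intervals of these filtered ratios are not given, so those near 1 may not differ from it. In the AT2 class (1246 and 222 cells) Junb moved from 0.596 to 0.895 and the AP-1 sum from 0.851 to 1.15. The heat shock sum stayed above 1 under this filter, at 1.06 and then 1.11 in the AT2 class and 1.23 and then 1.31 in the Endothelial class. Among 47 other immediate early genes of the AT2 class, 13 were lower and 1 higher, where 6.95% of genes passed 2-fold in either direction. Their median log2 ratio was -0.51 against 0.05 over all genes. The lowest were Rgs1 (ratio 0.0191), Rgs2 (0.0330) and Nfkbid (0.0725), of which Rgs1 is a leukocyte gene. Of 35 other chaperones 0 passed 2-fold in the AT2 class. Depth also differs between the libraries, and with every cell thinned to 1000 UMI the AP-1 ratio was 0.690 in the AT2 and 1.15 in the Endothelial class. The part of leukocyte RNA in these ratios was not tested beyond the filter.

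**Figure D3:**
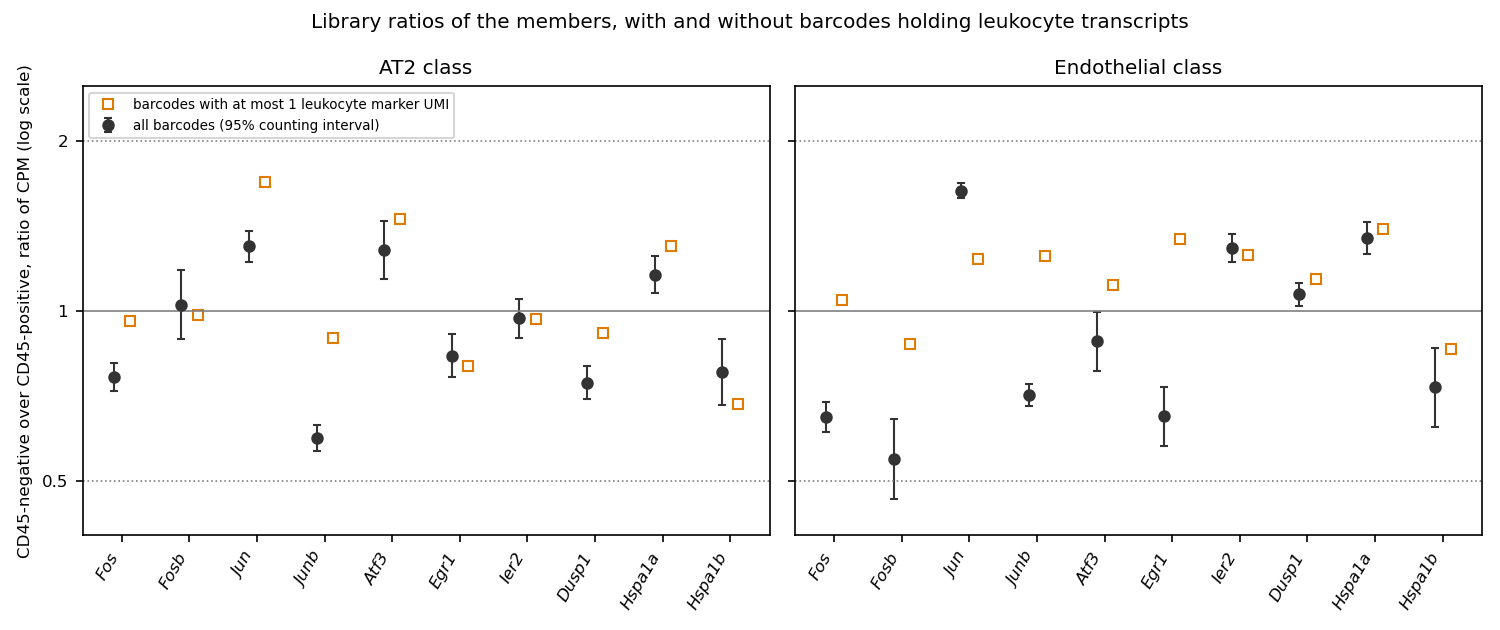
For each gene the vertical axis, on a log scale, gives the ratio of CPM in the CD45-negative over the CD45-positive library, in the AT2 class (left) and the Endothelial class (right). Filled points with 95% counting intervals are all barcodes, open squares are barcodes with at most 1 leukocyte marker UMI, and dotted lines mark 2-fold, which no filled point passes. Junb in the Endothelial class moves from 0.709 to 1.25.

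Other classes gave members past 2-fold. In the Ciliated class Fosb (ratio 0.383) and Egr1 (0.476) were lower in the CD45-negative library, against 2.37% of genes, and in the Fibroblast class Fosb (0.415) and Egr1 (0.491), against 2.11% of genes. In these classes 88.8% and 81.9% of the CD45-positive barcodes held more than 1 leukocyte UMI. In the Erythrocyte class 8 of 10 members were lower, as were 42.4% of genes. In the Immune class, with 108 cells in the CD45-negative library, Fosb was higher (2.10-fold, against 13.3% of genes) and Hspa1b (0.362) and Egr1 (0.470) were lower (14.5% of genes). Those 108 cells held alveolar macrophage markers at 25065 CPM, against 284 for T cell and 285 for B cell markers. In the CD45-positive library 1024 of 7438 Immune cells lay in the alveolar macrophage-like cluster. The mix of cell types thus differs, and its part in these ratios was not tested.

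Single cells of the CD45-negative library, each thinned to 4000 UMI, differed in how evenly these transcripts were spread. In the AT2 class 25.3% of cells had none of the 8 immediate early members, the median cell had 2 of their UMI, and the 10% of cells with most held 50.8% of them. In the Endothelial class 0.240% of cells had none, the median cell had 9 UMI, and the top 10% held 26.8%. The Cldn4-led class had a median of 4 members detected per cell, and 35.1% of its cells had at least 5, against 8.11% of AT2 cells. Of the heat shock pair, 64.2% of UMI lay in the top 10% of AT2 cells and 52.0% in that of Endothelial cells, on fewer UMI. Before thinning, 81.6% of all Fos UMI of the AT2 class came from the top 10% of its cells.

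Most members were at least 2-fold more frequent in AT2 cells that also held Fos, and fewer passed that threshold in the Cldn4-led class. In the AT2 class 345 of 1677 cells had a Fos UMI after thinning. Fosb was found in 21.4% of them and in 2.40% of the other cells, Egr1 in 31.9% and 8.56%, Atf3 in 21.7% and 6.01%, and Hspa1a in 42.3% and 18.4%. Of the 9 other members 7 were at least 2-fold more frequent in the cells with Fos, where 2.49% of 8553 genes were, and 0 of those genes had a higher ratio than Fosb (8.93). In the Endothelial class Fosb (16.5% against 2.21%), Egr1 (24.3% against 5.64%), Atf3 (29.0% against 9.73%) and Hspa1b (15.9% against 7.63%) passed 2-fold, 4 of the 6 members in the tested range, where 0.726% of genes did. Jun was found in 97.4% of Endothelial cells with Fos and in 97.0% of those without. At so high a share a difference could hardly be seen. In the Fibroblast class 3 of 9 passed, Fosb, Egr1 and Atf3, where 5.85% of genes did. In the Cldn4-led class 1 of 8 passed, Fosb, where 8.48% did and 126 genes had a higher ratio than Fosb. Jun and Junb were in 53.5% and 75.7% of its cells without Fos, so neither could reach 2-fold. All the other members had higher shares in its cells with Fos, with ratios from 1.08 (Junb) to 3.74 (Fosb). In the Ciliated class 5 of 8 passed, where 23.3% did, with Egr1 in 55.2% of 58 cells with Fos and in 2.0% of 50 without, none of which held Fosb. Fos and Egr1 were both higher in the cells of this class with at least 3 ciliated markers. Its cells with Fos were also deeper before thinning (median 9944.5 against 7507 UMI). The part of cell type and depth in these shares was not tested.

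AT2 cells with Fos were deeper before thinning (median 9767 against 7975.5 UMI) and more often held more than 1 leukocyte UMI (34.8% against 23.3%). Over the AT2 cells with at most 1 such UMI the shares were 21.3% and 2.35% for Fosb, 28.4% and 7.64% for Egr1, and 37.3% and 15.6% for Hspa1a. Cells of 1 library share their source, so these shares describe these cells and carry no test.

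**Figure D4:**
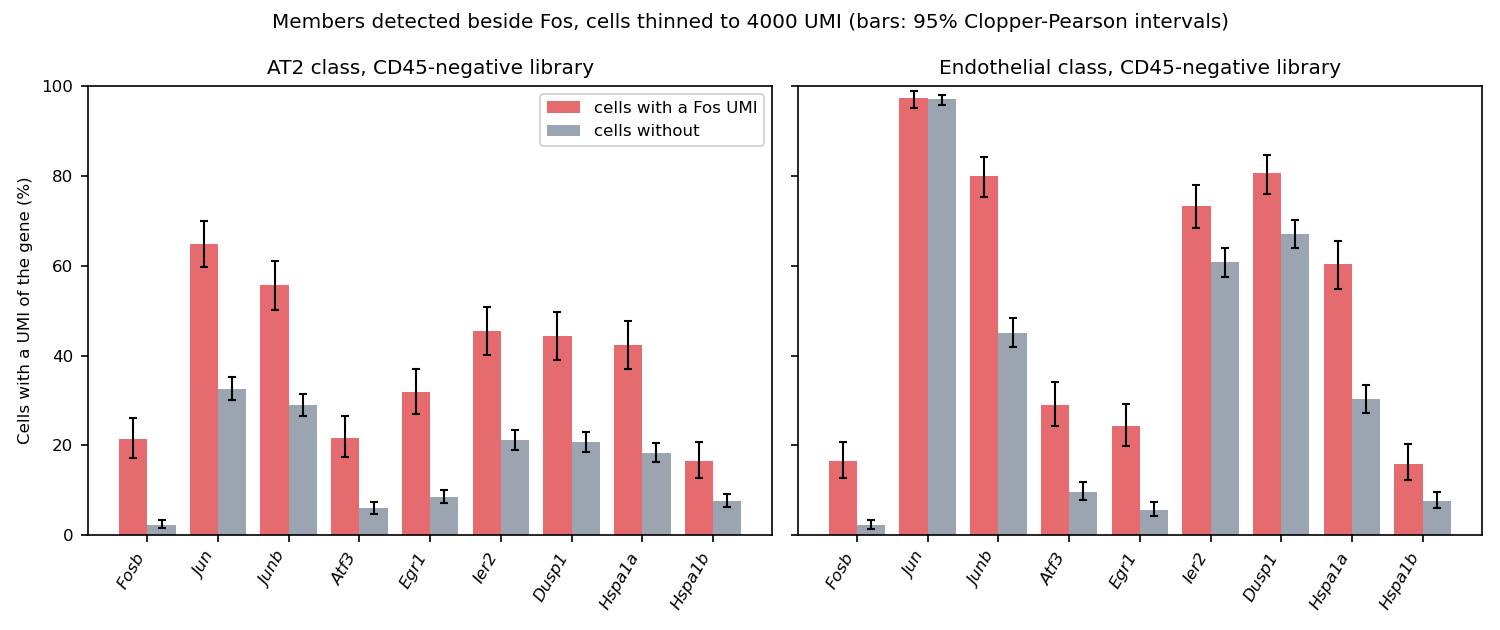
Bars give the percentage of cells with a UMI of each gene among cells with a Fos UMI (red) and without (grey), in the AT2 and Endothelial classes of the CD45-negative library after thinning to 4000 UMI, with 95% Clopper-Pearson intervals. Fosb is found in 21.4% against 2.40% of AT2 cells. Jun in the Endothelial class is at 97.4% and 97.0%, near the ceiling in both groups.

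Immune cells of the CD45-positive library were clustered without the genes of any list used here, and clusters were named from marker genes by a rule set after the data were seen. The summed AP-1 genes ranged from 624 CPM (553 to 703) in a cycling cluster to 4317 CPM (3857 to 4816) in a mast cell or basophil-like cluster of 25 cells. The next were a C1q macrophage-like cluster led by Prg4 (3142 CPM, 27 cells), the monocyte-like cluster (2830 CPM, 132 cells), the neutrophil-like cluster (2640 CPM, 576 cells), a T cell-like cluster led by Cd163l1 and Il17a (2455 CPM, 205 cells) and a C1q macrophage-like cluster led by C1qa (2323 CPM, 586 cells). The B cell-like, plasma cell-like and alveolar macrophage-like clusters lay at 1278, 1330 and 1393 CPM. The cluster called NK cell-like held Cd3e, a T cell gene, at 192 CPM, and its name is uncertain.

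The members past 2-fold differed from cluster to cluster. In the neutrophil-like cluster 3 of 10 were higher than in the rest of the Immune class, where 3.2% of genes were: Egr1 (4.55-fold, at 261 CPM), Dusp1 (2.75-fold, at 834 CPM) and Atf3 (2.28-fold). In the monocyte-like cluster 3 were higher, against 7.14% of genes: Atf3 (4.52-fold), Dusp1 (2.66-fold) and Fos (2.60-fold, at 1185 CPM). The C1qa-led cluster had 2 higher, against 5.24%: Atf3 (3.70-fold) and Hspa1a (2.26-fold, at 246 CPM). The T cell-like cluster with Il17a had Junb higher (2.29-fold, at 1737 CPM), against 6.34%, and Atf3 lower (0.257), against 20.6%. In the 25 mast cell or basophil-like cells 6 were higher, against 12.9%, with Egr1 (10.0-fold), Ier2 (6.11-fold) and Jun (4.61-fold) first. There 3 were lower, against 45.9%, on 2 UMI of Atf3 (ratio 0.423, 0.0512 to 1.53), 2 of Hspa1a and none of Hspa1b. The Treg-like cluster had Fos, Fosb, Atf3 and Egr1 lower (ratios 0.314 to 0.458), against 18.8% of genes, and the B cell-like cluster Fos (0.398), Atf3 and Dusp1, against 16.6%.

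The heat shock sum shared some of its highest clusters with the AP-1 sum and not others. It was highest in the C1qa-led cluster at 283 CPM (262 to 304), followed by the monocyte-like (247), mature dendritic cell-like (239), Ccl5-led T cell-like (214) and Il17a T cell-like (213) clusters. The neutrophil-like cluster, near the top for AP-1, had 145 CPM (128 to 164), and the 25 mast cell or basophil-like cells had 27.0 CPM (3.27 to 97.5). Of 46 other immediate early genes in the neutrophil-like cluster, 16 were higher, where 3.2% of all genes were, and 1 was lower. Their median log2 ratio was 0.68 against -0.18 over all genes, and Cxcl2 (8.44-fold) and Ier3 (7.21-fold) led. Cxcl2 attracts neutrophils, and Ier3 is a target of NF-kB. Of 34 other chaperones in that cluster, 1 was higher and 3 were lower. The share of all genes lower there is not given, so the lower counts cannot be weighed. In the C1qa-led cluster 4 of 46 immediate early genes were higher, where 5.24% of all genes were, led by Socs3 (3.18-fold). Of 34 chaperones there, 0 passed 2-fold.

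**Figure D5:**
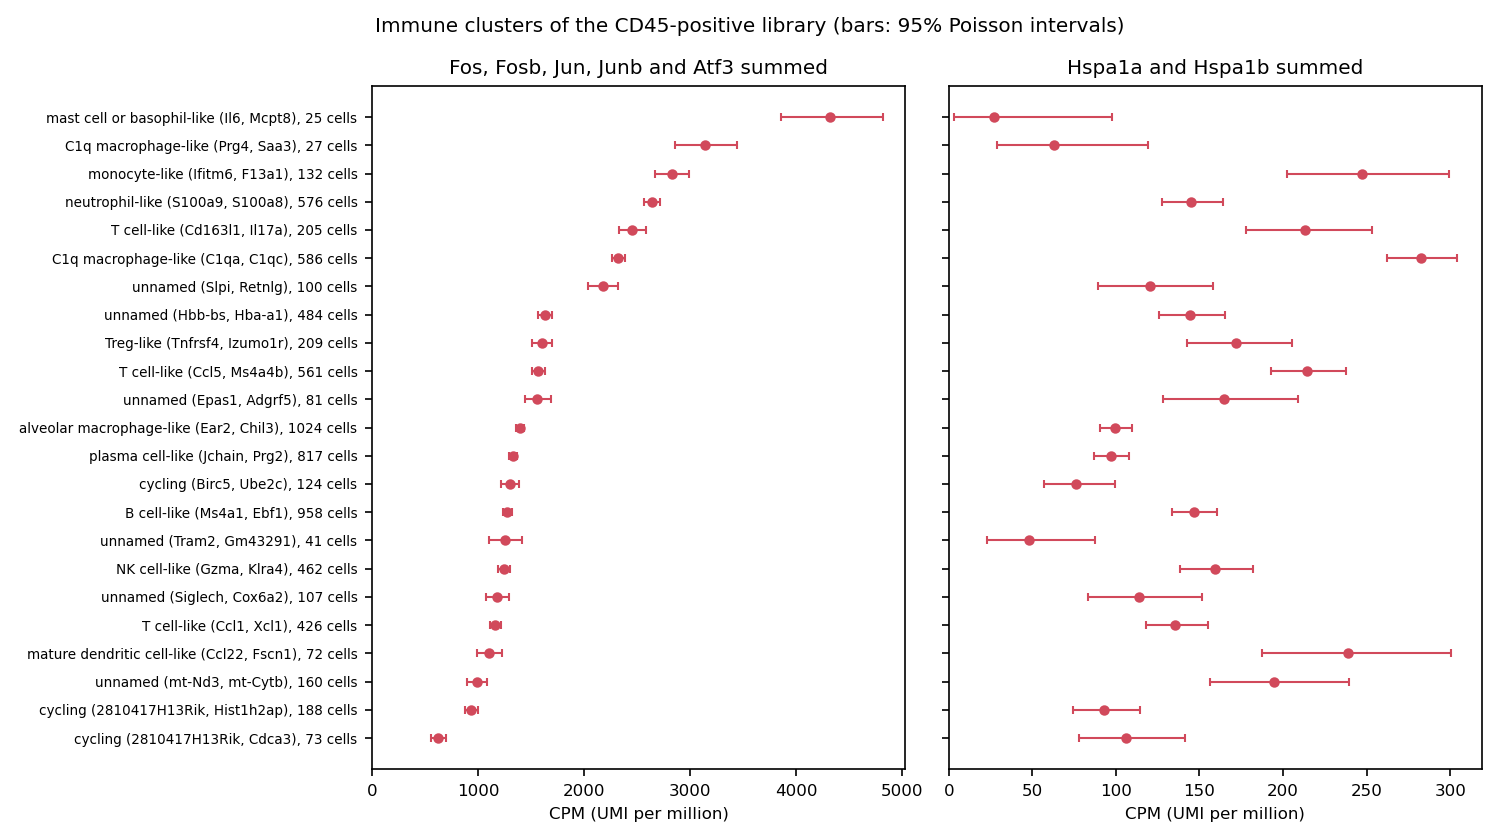
Points give the level in CPM of the summed AP-1 genes (left) and of the summed Hspa1a and Hspa1b (right) in each immune cluster of the CD45-positive library, with 95% Poisson intervals and the number of cells beside each name. The mast cell or basophil-like cluster is highest on the left at 4317 CPM and lowest on the right at 27.0 CPM.

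Over the 14 pools of class and library, the genes whose log2(CPM + 1) was most like that of the AP-1 sum, of 9960 ranked, were 5730508B09Rik (Pearson r 0.962), Bbip1 (0.947), Zfp36 (0.939), the member Ier2 (0.939), Orai2 (0.931) and Upf3b (0.921). Zfp36 encodes an RNA-binding protein that shortens the life of immediate early transcripts. For the heat shock sum they were Zfp513 (0.990), 4930523C07Rik (0.952), Tdg (0.952), Nol9 (0.948), Zfand5 (0.942) and Imp3 (0.939). Fos and Fosb had r 0.970, and Fos and Jun 0.378. The pools share libraries and differ in depth and in how much of their RNA a few genes take, so these values are a description.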

How the data were processed

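Single cells of the 2 libraries were read from the authors' deposited raw counts, whole-number UMI per gene and cell, and from a deposited table of classes. Per the series design text, reads of 98 bases were processed with Cell Ranger 1.1.0 against mm10, and 6000 cells per channel had been loaded. The sources used here do not say how classes were made. The UMI total matched the deposited total in all 15389 cells, and the least deep cells had 4646 and 2204 UMI. Counts were summed by class and library and scaled to CPM. Intervals are exact at 95% (Poisson for levels, conditional binomial for ratios, Clopper-Pearson for shares). Genes with at least 50 UMI in the compared groups entered a comparison. Immune cells were clustered with scanpy 1.11.5 (Leiden resolution 1.0, 2000 variable genes, 30 components). No doublet caller was run, and whether doublets were removed earlier is not given. Named genes are all 10 members and, per list, up to 3 with the highest and 3 with the lowest ratio among those with at least 200 UMI, plus the 6 genes most like each sum. The ratio and interval functions were run on simulated independent Poisson counts with known ratios. Such counts leave out the clumping of UMI in cells, so this run checks the code and not the coverage on these data. The members and lists were chosen with earlier results of these data known. Alternatives changed the scaling, cells, depth, totals and resolution.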

Additional observations from a re-analysis of the deposited data

Results flagged for a closer look

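The AT2 and Endothelial classes went opposite ways between the libraries for the summed AP-1 genes and for 2 members, with intervals on either side of 1. The CD45-negative over CD45-positive ratio of the AP-1 sum was 0.851 in the AT2 class and 1.12 in the Endothelial class. That of Dusp1 was 0.745 and 1.07, and that of Atf3 was 1.28 and 0.882. Whether the classes differ was not tested, since each ratio rests on 1 library per fraction. Over barcodes with at most 1 leukocyte marker UMI the AP-1 ratios were 1.15 and 1.21, on the same side of 1. The Endothelial ratio of Atf3 was 1.11 under that filter, and that of Dusp1 was 0.951 with every cell thinned to 1000 UMI. Each point value then lay on the same side of 1 as in the AT2 class. No intervals are given for these alternatives, so a turn past 1 is not established.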

How the results depend on the processing

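No paired analysis was possible because each group has 1 library, and for the same reason no replicate could be left out. Of 34 alternative values of the 6 main ratios, 13 stayed within the counting interval and 21 did not, and the AP-1 ratio of Endothelial over AT2 cells, the 1 past 2-fold, stayed past it. The AP-1 and heat shock ratios of the AT2 class crossed 1. For the AP-1 sum in the AT2 class (0.851), the mean of per-cell CPM gave 0.665, cells with at most 5% mitochondrial UMI 0.893, thinning to 1000 UMI 0.690, and the leukocyte filter 1.15. In the Endothelial class (1.12) thinning gave 1.15, the leukocyte filter 1.21, totals without genes over 0.5% of UMI 1.10, and cells without pericyte or fibroblast markers, an alternative chosen after seeing the data, 1.17. For the heat shock sum in the AT2 class (1.06), the per-cell mean gave 0.980 and thinning 0.944, and in the Endothelial class (1.23) thinning gave 1.45. For the AP-1 sum of Endothelial over AT2 cells (2.67), the per-cell mean gave 3.33, thinning 3.29, the leukocyte filter 3.21, the reduced totals 2.12 and the cells without pericyte or fibroblast markers 2.77. For the heat shock sum (1.47) these gave 1.85, 1.98, 1.97 and 1.17 in the same order up to the reduced totals, and the mitochondrial filter gave 1.55. Of 150 alternatives for single members 69 stayed within the interval, and of 18 for immune clusters at other resolutions 13 did. Thinning turned Hspa1b in the Endothelial class from 0.732 to 1.05 and Dusp1 from 1.07 to 0.951, and for Endothelial over AT2 the per-cell mean turned Atf3 from 0.847 to 1.19 and the leukocyte filter Hspa1b from 0.818 to 1.10. These turned values are given without intervals, and the cause was not tested. Of the members, Hspa1b and Fosb rest on the fewest UMI, which limits their precision.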
